A study of Arabidopsis thaliana with 12 samples.

Results

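Genes that act in mitosis and cytokinesis were followed in rosette axillary buds of Arabidopsis thaliana. The list held 60 loci grouped by function (mitotic cyclins and their kinases, condensin, centromere and kinetochore genes, kinesins, spindle checkpoint and phragmoplast genes, with Aurora 1 and 2 left out). It was drawn up with earlier results of these data known, so counts over its genes are a description and no independent support. Of the 60 loci, 21 had a probe set on the Affymetrix ATH1 array that the platform annotation pairs with that gene alone, out of 13286 loci named in this way. The other 39 loci, among them all 14 of the mitotic entry step (B-type cyclins, CDKB kinases and their regulators), were not analysed here. The array may hold probe sets for them that this annotation does not list. Below, a measured gene is one with a probe set named in this way. By step, the 21 genes comprised 8 of 14 loci of chromosome condensation and the centromere, 8 of 12 of the spindle, 3 of 10 of the checkpoint and anaphase, and 2 of 10 of the phragmoplast and cytokinesis. Kinesins given by locus alone were placed in a step without a check of where they act. All 21 passed the filter on dim signal described below.

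The buds came from Col-8 plants (background Col-0, with no mutant or transgene named in the labels) at developmental stage 6.00. Light with a high ratio of red to far-red (R:FR) is that of open sky, and a low ratio is the signal of shade from neighbouring vegetation. The 4 groups, with 3 arrays each, were bud n (the uppermost rosette bud) at high R:FR, bud n at low R:FR, bud n-2 (a lower bud) at high R:FR and bud n-2 at low R:FR. All plants were grown singly in tubes in a divided chamber, with 18 h days, a photon flux of 185 micromoles per square metre each second, 24 °C by day and 18 °C by night, and the labels also name 3 days in the cold. The labels do not say whether the 3 arrays of a group came from separate sets of plants. Each p-value rests on the spread among arrays within groups, pooled over the 4 groups and moderated by that of other probe sets. That spread may be technical. Precision is limited throughout by this number of arrays.

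A plant cell enters mitosis when mitotic cyclins activate their kinases. Condensin and chromatin proteins compact the chromosomes, microtubules attach them at the centromeres, and the spindle checkpoint delays separation until every centromere is attached. After separation, plant cells build a new wall from the inside out on the phragmoplast, a microtubule array along which kinesins and vesicles move. Transcripts of most of these genes accumulate around G2 and M phase, so in a whole organ their level can depend on how much of the tissue is dividing. Bud outgrowth starts with renewed division and expansion in the bud's meristem and leaf primordia. In bulk samples such as these buds, fewer dividing cells and less RNA per dividing cell cannot be told apart.

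Probe sets were tested when they lay above the 40th percentile of their own array on at least 3 of the 12 arrays, which kept 14295 probe sets. Signals are given as deposited intensity, and differences as log2 values from a limma fit to all 12 arrays, with Benjamini-Hochberg adjustment over all tested probe sets and a threshold of 0.05. Correlations between arrays of a group were 0.977 to 0.988. Median array signal was 37.9 to 38.9 for bud n against 42.4 to 44.1 for bud n-2, so the scaling of the arrays moves with position. The 25S ribosomal RNA control signal also moved with position, with 1460 to 1765 on bud n arrays against 2123 to 2907 on bud n-2 arrays, and its part in the results was not tested. The log2 ratio of 3-prime to 5-prime actin signal, a sign of RNA integrity, was 1.64 ± 0.13 (SD, n = 3) and 1.74 ± 0.24 in bud n under high and low R:FR, against 1.43 ± 0.18 and 1.46 ± 0.12 in bud n-2, with arrays that overlapped under either light. The tissue label could not be checked, because of 11 shoot meristem and boundary genes only LAS had a named probe set, and LAS did not pass the filter (intensity 8.98 to 16.0). The lists of bud dormancy, floral organ identity and leaf photosynthesis genes had no named probe set. Of 4 meiosis genes, which could share the division machinery, ATSPO11-1 (6.56 to 14.3) and SDS (1.26 to 16.3) were measured and neither passed the filter. The anther gene AMS, the only measured gene of 4 on the anther list, was detected at 46.2 to 153, and was higher in bud n-2 at low R:FR (log2 1.14, adjusted p = 7.28e-05) but not at high R:FR (log2 -0.03, adjusted p = 0.929). What AMS-expressing tissue contributes to the division genes was not tested.

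Mitosis and cytokinesis genes passed the threshold between bud positions and not between lights. Under high R:FR, 19 of the 21 were lower in bud n-2 than in bud n and none was higher, where 14.3% of all tested probe sets were lower and 20.2% higher. Under low R:FR, 19 were again lower and none higher, where 23.3% of all tested probe sets were lower and 28.4% higher. The same 19 genes were lower under both lights, against 12.3% of all tested probe sets. The median log2 difference of the 21 was -0.81 (1.75-fold lower) at high R:FR and -0.90 (1.87-fold lower) at low R:FR, where the medians of all tested probe sets were 0.04 and 0.05. Of the 21, 20 reached the filter's minimum of 3 arrays in bud n-2 alone, and 18 of these 20 were lower under each light (medians -0.78 and -0.92). AT3G57060 reached it only through bud n, where it is higher, so its call is no independent evidence of the direction. The 2 genes that passed under neither light were ATSMC2 and AT3G45850. For the 19 genes, all 6 bud n arrays lay above all 6 bud n-2 arrays, which held for 12.9% of all tested probe sets. A fall of at least 1 on the log2 scale was called for 7 genes at high R:FR and for 10 at low R:FR, against 1.64% and 2.99% of all tested probe sets.

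**Figure D1:**
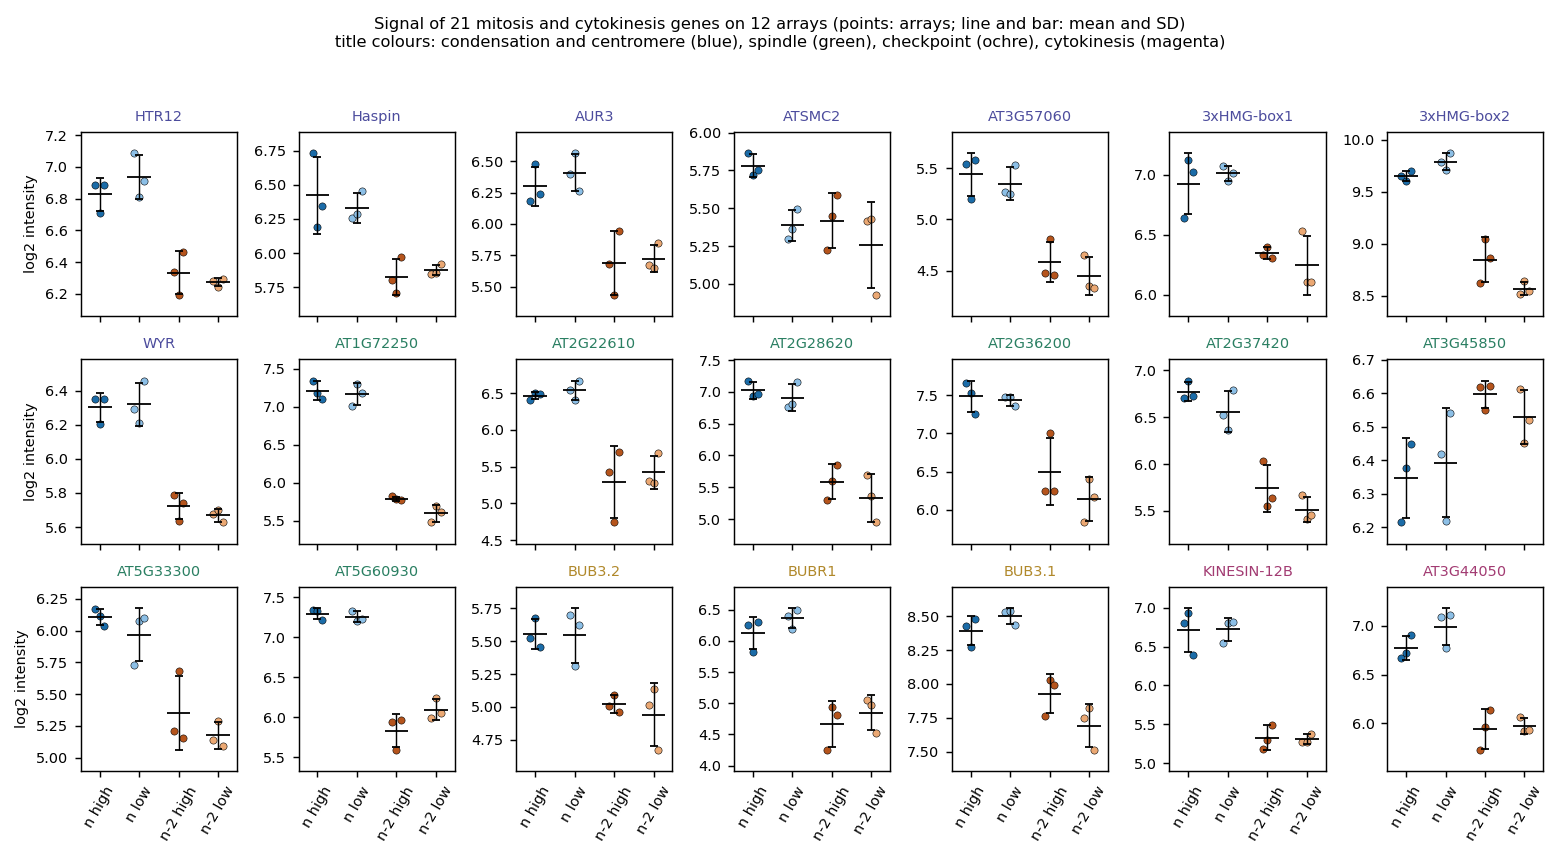
Log2 intensity of the 21 genes on the 12 arrays, a panel for each gene, with points for arrays and a line and bar for the mean and SD of each group (n = 3). In 19 panels every bud n array lies above every bud n-2 array, and ATSMC2 and AT3G45850 are the exceptions.

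Scaling moved the split of all calls but turned no called member. AT3G45850, which was not called, turned from 0.14 to -0.06 at low R:FR with median centring. The lower bud was the higher one in 58.6% of all high R:FR calls on the deposited scale, against 30.1% once arrays were median-centred, and the low R:FR shares were 54.9% and 33.3%. Median centring moved the median of all tested probe sets by -0.17 and -0.19 on the log2 scale. The members' median lay -0.85 and -0.95 from that of all tested probe sets at high and low R:FR as deposited, a distance that centring cannot change, and -0.87 and -1.09 with quantile normalization. After centring, 20 and 19 members were called lower, against 28.3% and 36.4% of all tested probe sets. With 32 added to each intensity before log2, which shrinks differences of dim genes, the members' median was -0.47 at high R:FR.

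Among genes of chromosome condensation and the centromere, 7 of 8 were lower in bud n-2 under each light, with a median log2 difference of -0.59 under high and -0.67 at low R:FR. The 7 include AT3G57060, which reached the filter's minimum only through bud n. Beside this and each later step count stand the shares of all tested probe sets that were lower, 14.3% at high and 23.3% at low R:FR. The gene with the smallest p was 3xHMG-box2, which encodes a plant-specific HMG-box protein that binds condensed mitotic chromosomes. Its intensity was 806, 781 and 833 in bud n at high R:FR and 885, 838 and 938 at low R:FR. In bud n-2 it was 393, 530 and 467 at high R:FR and 367, 398 and 375 at low R:FR. All bud n arrays were thus above all bud n-2 arrays, with a gap wider than the spread within any group. The log2 difference was -0.81 ± 0.10 (SE, adjusted p = 8.53e-06) at high R:FR and -1.22 ± 0.10 (adjusted p = 3.58e-08) at low R:FR. Its paralogue 3xHMG-box1 was lower by less, with -0.58 ± 0.13 (adjusted p = 0.00285) and -0.76 ± 0.13 (adjusted p = 0.00014).

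HTR12, the centromeric histone H3 that marks where kinetochores form, gave 118, 105 and 118 in bud n at high R:FR and 136, 112 and 121 at low R:FR. Bud n-2 gave 80.9, 73.2 and 88.5 at high R:FR and 77.9, 75.9 and 78.4 at low R:FR. The groups did not overlap between positions, and the lowest spread was in bud n-2 at low R:FR (SD 0.026 on the log2 scale). HTR12 was 1.41-fold lower at high R:FR (log2 -0.49 ± 0.11 SE, adjusted p = 0.00178) and 1.58-fold lower at low R:FR (log2 -0.66, adjusted p = 6.76e-05).

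The chromosomal passenger complex carries Aurora kinase to the inner centromere and later to the division plane. WYR, the plant INCENP-like subunit, gave 81.7, 73.6 and 81.6 in bud n at high R:FR and 78.3, 74.1 and 88.0 at low R:FR. In bud n-2 WYR gave 55.2, 49.7 and 53.6 at high R:FR and 51.2, 52.1 and 49.4 at low R:FR. The values of bud n-2 all lay between 49.4 and 55.2, below every bud n array. WYR was lower by -0.58 ± 0.11 (SE, adjusted p = 0.000624) and -0.65 ± 0.11 (adjusted p = 0.000107) on the log2 scale under high and low R:FR. AUR3, the centromere-associated Aurora kinase, differed by -0.61 (adjusted p = 0.00256) and -0.68 (adjusted p = 0.000543). Haspin, the kinase whose mark on histone H3 recruits the complex, differed by -0.60 (adjusted p = 0.00228) and -0.46 (adjusted p = 0.00847).

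Both measured condensin genes are given next, and the difference between them was not tested. AT3G57060, on the list as a condensin gene, ranged from 36.8 to 47.9 on the bud n arrays, while bud n-2 spanned 20.1 to 28.1 without overlap. Its log2 differences were -0.86 ± 0.18 (SE, adjusted p = 0.00117) and -0.90 ± 0.18 (adjusted p = 0.000395), but 4 of its 6 bud n-2 values lay below the 40th percentile of their arrays, so the size rests on dim signal. With 32 added before log2 the differences were -0.43 and -0.44. The gene reached the filter's minimum only through bud n, so its call is no independent evidence of the direction. ATSMC2, an SMC2 subunit of condensin, gave 58.3, 52.8 and 54.0 in bud n at high R:FR, above all other arrays. It gave 39.3, 41.2 and 45.2 in bud n at low R:FR, 37.3, 43.7 and 48.0 in bud n-2 at high R:FR, and 42.6, 43.0 and 30.4 in bud n-2 at low R:FR. The latter 3 groups overlapped. The position difference of ATSMC2 was -0.36 (95% confidence interval -0.69 to -0.04, adjusted p = 0.079) at high R:FR and -0.13 (-0.46 to 0.19, adjusted p = 0.501) at low R:FR. Under high R:FR it passed with quantile normalization (adjusted p = 0.0179), with median centring (adjusted p = 0.0113) and without replicate 3 of bud n-2 at low R:FR (adjusted p = 0.0481).

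At the spindle step, 7 of 8 genes were lower in bud n-2 under each light, with a median log2 difference of -1.10 under high and -1.14 at low R:FR. All 8 are on the list as kinesins, motor proteins that slide, bundle or move along spindle and phragmoplast microtubules, and the annotation used here gives them by locus alone. Their placing at the spindle step was not checked. AT1G72250 had the smallest p of all 21 genes. Its intensity was 162, 145 and 137 in bud n at high R:FR and 129, 158 and 144 at low R:FR. In bud n-2 it was 56.6, 55.0 and 54.6 at high R:FR and 44.6, 51.9 and 49.2 at low R:FR. The highest bud n-2 array was thus far below the lowest bud n array. The kinesin gene was 2.67-fold lower at high R:FR (log2 -1.42 ± 0.11 SE, adjusted p = 5.8e-08) and 2.96-fold lower at low R:FR (log2 -1.56 ± 0.11, adjusted p = 6.93e-09).

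AT5G60930 gave 162, 160 and 148 in bud n at high R:FR and 161, 147 and 150 at low R:FR. Bud n-2 gave 61.4, 48.2 and 62.3 at high R:FR and 63.6, 75.6 and 66.4 at low R:FR. Here the 3 low R:FR arrays of bud n-2 all lay above the 3 high R:FR arrays, and all 6 were below bud n. The log2 difference between positions was -1.46 ± 0.11 (SE, adjusted p = 6.39e-08) at high R:FR, the largest fall among the 21 genes in that light, and -1.16 ± 0.11 (adjusted p = 3.35e-07) at low R:FR.

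AT2G28620 gave 145, 122 and 125 in bud n at high R:FR and 108, 112 and 143 at low R:FR. It gave 39.6, 48.7 and 57.7 in bud n-2 at high R:FR and 51.8, 41.0 and 30.8 at low R:FR. The arrays of bud n-2 spread over nearly a doubling, and still none reached bud n. The gene was 2.71-fold lower at high R:FR (log2 -1.44 ± 0.17 SE, adjusted p = 8.44e-06) and 2.99-fold lower at low R:FR (log2 -1.58 ± 0.17, adjusted p = 1.3e-06).

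AT2G37420 and AT2G22610 also fell by more than 1 on the log2 scale under both lights, with -1.03 and -1.05 for the former and -1.17 and -1.12 for the latter. AT2G36200 was lower by -0.98 (adjusted p = 0.000428) and -1.30 (adjusted p = 1.4e-05). AT5G33300 was lower by -0.76 (adjusted p = 0.000953) and -0.79 (adjusted p = 0.000332). The exception was AT3G45850. It gave 74.2, 83.0 and 87.2 in bud n at high R:FR and 85.5, 74.4 and 93.0 at low R:FR, and in bud n-2 it gave 98.3, 93.7 and 98.4 at high R:FR and 97.8, 87.5 and 91.7 at low R:FR. Under high R:FR the 3 bud n-2 arrays lay above the 3 bud n arrays, and at low R:FR the groups overlapped. The log2 difference was 0.25 (95% confidence interval 0.02 to 0.48, adjusted p = 0.0816) at high R:FR and 0.14 (-0.09 to 0.36, adjusted p = 0.309) at low R:FR. These intervals exclude a fall as large as the smallest called one of the other spindle kinesins.

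**Figure D2:**
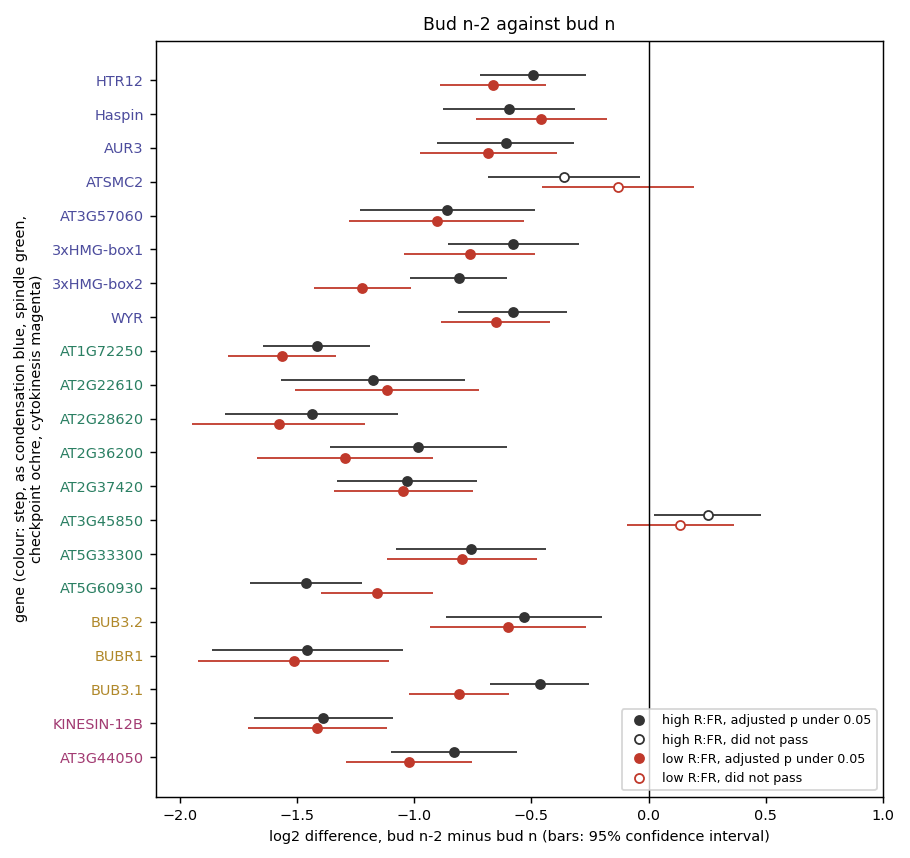
Log2 difference of bud n-2 minus bud n for each of the 21 genes under high and low R:FR, with 95% confidence intervals from the fit and filled points for adjusted p under 0.05. The 19 filled pairs lie between -0.46 and -1.58, and ATSMC2 and AT3G45850 have open points.

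All 3 measured spindle checkpoint genes were lower in bud n-2 under each light. BUBR1, which inhibits the anaphase-promoting complex while centromeres are unattached, gave 76.2, 56.7 and 79.0 in bud n at high R:FR and 84.9, 72.8 and 90.6 at low R:FR. It gave 19.0, 30.8 and 28.2 in bud n-2 at high R:FR and 33.3, 31.3 and 23.03 at low R:FR. Bud n-2 was below bud n on every array, and the array at 19.0 lay below its 40th percentile. The fall was 2.74-fold at high R:FR (log2 -1.46 ± 0.19 SE, adjusted p = 2.19e-05) and 2.86-fold at low R:FR (log2 -1.51 ± 0.19, adjusted p = 6.2e-06).

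BUB3.1, a WD-repeat partner of the checkpoint kinases, gave 344, 310 and 357 in bud n at high R:FR and 369, 372 and 346 at low R:FR. In bud n-2 it gave 218, 261 and 255 at high R:FR and 215, 226 and 183 at low R:FR. The positions did not overlap. BUB3.1 was lower by -0.46 ± 0.10 (SE, adjusted p = 0.00179) at high R:FR and by -0.81 ± 0.10 (adjusted p = 4.69e-06) at low R:FR. BUB3.2, its paralogue, gave 46.1, 51.1 and 43.8 in bud n at high R:FR and 51.9, 39.6 and 49.3 at low R:FR. It gave 32.2, 34.1 and 31.2 in bud n-2 at high R:FR and 32.3, 35.3 and 25.5 at low R:FR. The highest bud n-2 array, at 35.3, was close to the lowest bud n array, at 39.6. BUB3.2 was lower by -0.53 ± 0.16 (SE, adjusted p = 0.015) and -0.60 ± 0.16 (adjusted p = 0.00425), and the call at high R:FR was lost without replicate 2 of bud n at high R:FR (adjusted p = 0.0619).

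Both genes placed in the phragmoplast and cytokinesis step were lower in bud n-2. One of them, AT3G44050, is given by locus alone, and its placing in this step was not checked. KINESIN-12B, a motor of the phragmoplast midline that keeps opposing microtubule ends apart, gave 112, 122 and 84.4 in bud n at high R:FR and 93.5, 112 and 112 at low R:FR. Bud n-2 gave 36.3, 39.5 and 45.1 at high R:FR and 38.7, 38.6 and 41.6 at low R:FR. No bud n-2 array came near bud n. It was 2.62-fold lower at high R:FR (log2 -1.39 ± 0.14 SE, adjusted p = 1.21e-06) and 2.66-fold lower at low R:FR (log2 -1.41 ± 0.14, adjusted p = 4.08e-07). AT3G44050, on the list as a kinesin, gave 102, 106 and 120 in bud n at high R:FR and 136, 109 and 139 at low R:FR. It gave 52.8, 62.3 and 70.4 in bud n-2 at high R:FR and 66.8, 60.3 and 61.0 at low R:FR. The positions were again apart, with a fall of 1.78-fold (log2 -0.83 ± 0.13 SE, adjusted p = 8.22e-05) at high R:FR and 2.03-fold (log2 -1.02 ± 0.13, adjusted p = 4.46e-06) at low R:FR.

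**Figure D3:**
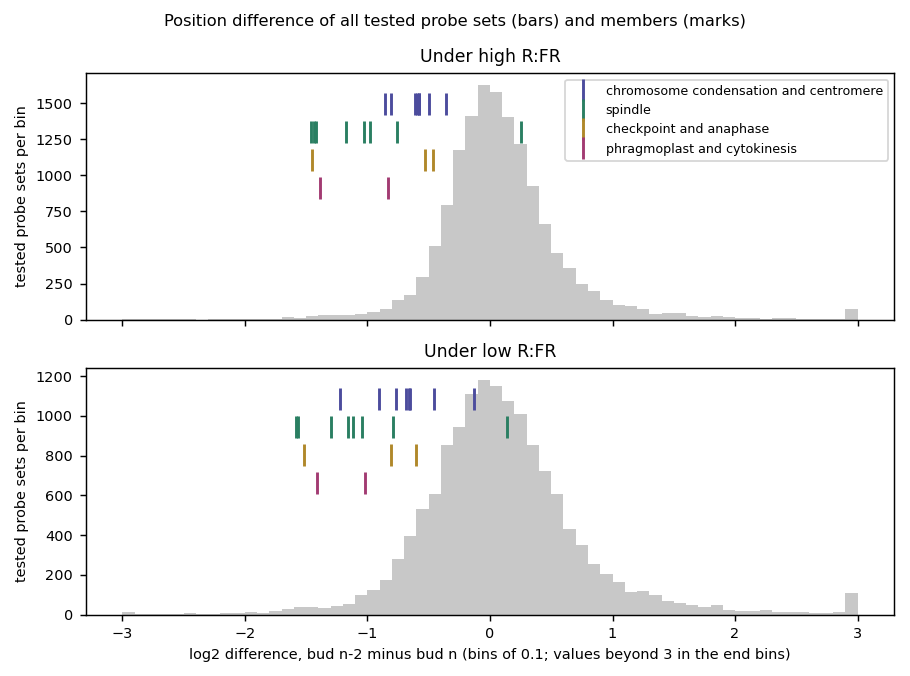
Number of tested probe sets (grey bars, bins of 0.1) by log2 difference of bud n-2 minus bud n at high R:FR (top) and low R:FR (bottom), with a coloured mark for each of the 21 genes by step. Grey bars centre near 0, and all marks but that of AT3G45850 lie below 0, with medians of -0.81 and -0.90.

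Across the steps, the 10 kinesins had median differences of -1.10 and -1.14 under high and low R:FR, with 9 of 10 lower in each, and the 8 condensation and centromere genes had medians of -0.59 and -0.67. No test between steps was made, and the sizes depend on each probe set's own response. AUR1 and AUR2, the Aurora kinases of the spindle and cell plate, were lower by -1.62 and -1.45 at high R:FR and by -1.48 and -1.50 at low R:FR, where the range of the 19 called genes was -1.46 to -0.46 and -1.58 to -0.46. Under high R:FR, 5 of the 21 (AT5G60930, BUBR1, AT2G28620, AT1G72250 and KINESIN-12B) ranked 92nd, 95th, 99th, 102nd and 109th from the most negative of all 14295 tested probe sets. At low R:FR the same 5 stood further from that end, at 297th, 153rd, 130th, 138th and 196th.

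Low against high R:FR was then compared within each bud, which asks whether shade light changes the division genes at a given position. None of the 21 genes passed in either bud (limma, adjusted p). In bud n, where 0.0700% of all tested probe sets were called higher and 0.0140% lower, the median log2 change was 0.01 and the range -0.39 to 0.24. The change was negative for 10 of the 21 genes, where 49.5% of all tested probe sets were negative. Medians by step were 0.05 for condensation and centromere, -0.05 for the spindle, 0.11 for the checkpoint and 0.11 for cytokinesis. One gene, ATSMC2, had an unadjusted p under 0.05, against 6.03% of all tested probe sets. Its change was -0.39 (95% confidence interval -0.72 to -0.07, adjusted p = 0.772), and the 3 arrays of each light did not overlap. 3xHMG-box2 also did not overlap, with a log2 change of 0.14 (adjusted p = 0.962), which makes 2 genes of 21 where 11.6% of all tested probe sets did not overlap. The 95% intervals lay within 0.5 on the log2 scale in either direction for 18 of the 21 genes, and within 1 for all 21.

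In bud n-2, where 4.34% of all tested probe sets were called higher and 5.49% lower, the median log2 change of the 21 genes was -0.08 and the range -0.36 to 0.26. The change was negative for 15 of the 21 genes, where 48.7% of all tested probe sets were negative. Medians by step were -0.08 for condensation and centromere, -0.18 for the spindle, -0.08 for the checkpoint and 0.01 for cytokinesis. Of the 21, 3 had an unadjusted p under 0.05, against 24.3% of all tested probe sets. 3xHMG-box2 had a change of -0.28 (95% confidence interval -0.48 to -0.07, adjusted p = 0.0865), and it passed without replicate 1 of bud n-2 at high R:FR (log2 -0.39, adjusted p = 0.0192). BUB3.1 had a change of -0.24 (-0.45 to -0.02, adjusted p = 0.155). AT5G60930 had a change of 0.26 (0.02 to 0.50, adjusted p = 0.159), in the other direction. The intervals lay within 0.5 in either direction for 14 of the 21 genes and within 1 for all 21. AT1G72250 and AT5G60930 were the 2 genes whose light groups did not overlap in bud n-2, where 28.8% of all tested probe sets did not.

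**Figure D4:**
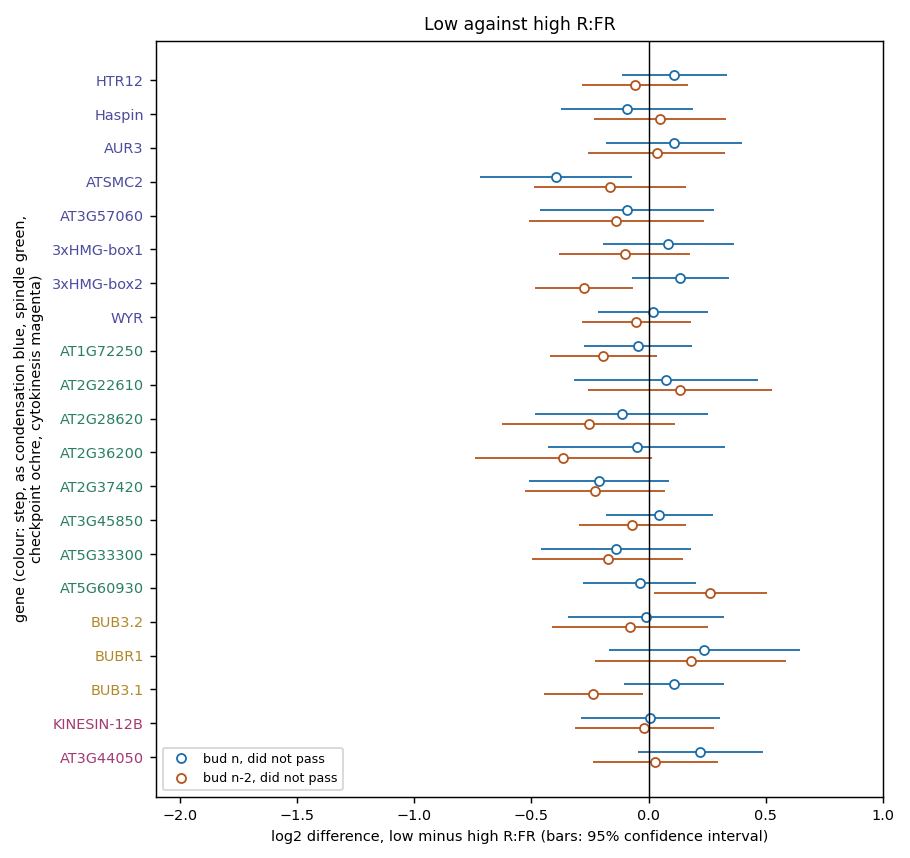
Log2 difference of low minus high R:FR for each of the 21 genes in bud n and in bud n-2, with 95% confidence intervals, on the same scale as the plot of position differences. All points are open because no gene passed, and they lie between -0.39 and 0.26.

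For 20 of the 21 genes, ATSMC2 excepted, the smaller of the position differences was larger in size than either light response. The 20 include AT3G45850, whose position differences were positive and not called. The share of all tested probe sets that meet the same condition was not counted, so the 20 are given as a description only. The largest light response in size was 0.39, and no light response was called. The smallest called position difference was 0.46 in size, a minimum that depends on the threshold for a call. Position differences not called were smaller than 0.39 in size, at -0.36 and -0.13 for ATSMC2 and 0.25 and 0.14 for AT3G45850.

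The difference between the light responses of the buds, which is also the difference between the position effects under low and high R:FR, passed for none of the 21 genes (limma, adjusted p from 0.161 to 0.981), where 0.343% of all tested probe sets were called more positive in bud n-2 and 0.686% more negative. The difference was negative for 17 of 21 genes, with a median of -0.07, where 49.6% of all tested probe sets were negative with a median of 0.00. The members' median depended on single arrays, and was -0.02 without replicate 3 of bud n at low R:FR, -0.13 without replicate 2 of that group and between these values without any other array. An unadjusted p under 0.05 was reached by 2 genes, 3xHMG-box2 (log2 -0.41 ± 0.14 SE, adjusted p = 0.161) and BUB3.1 (-0.34 ± 0.14, adjusted p = 0.261), against 14.9% of all tested probe sets. AT5G60930 differed the other way, by 0.30 ± 0.16 (adjusted p = 0.396). The 95% intervals reached from -0.85 to 0.69 over the 21 genes, so a dependence of the position effect on light of that size is not excluded for single genes.

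Of 77 other cell cycle genes listed for comparison (G1 and S phase regulators, inhibitors, anaphase-promoting complex and replication genes), 8 could be matched to a probe set of their own, and 7 passed the filter. CDC27a, an anaphase-promoting complex subunit, did not pass the filter. Of the 7, 3 were lower in bud n-2 and none higher under each light, with medians of -0.29 and -0.31. Among all tested probe sets, 14.3% were lower at high R:FR and 23.3% at low R:FR, and 7 genes are too few to set apart from these shares. PRL, the MCM7 subunit of the replication helicase, was lower by -0.48 ± 0.10 (SE, adjusted p = 0.00182) and -0.49 ± 0.10 (adjusted p = 0.000829). SIM, an inhibitor of cyclin-dependent kinases that acts in the switch to endoreplication, was also lower, by -0.61 ± 0.18 (SE, adjusted p = 0.0131) and -0.51 ± 0.18 (adjusted p = 0.0223). ICU2, the DNA polymerase alpha subunit, was lower at high R:FR (log2 -0.49, adjusted p = 0.0396) and did not pass at low R:FR (log2 -0.40, adjusted p = 0.0652), while HBT, a CDC27 subunit of the anaphase-promoting complex, did not pass at high R:FR (log2 -0.14, adjusted p = 0.246) and was lower at low R:FR (log2 -0.29, adjusted p = 0.0129). None of the 7 passed in a light response of either bud or in the difference of the responses. Shares of all tested probe sets called higher and lower were 0.0700% and 0.0140% in bud n. They were 4.34% and 5.49% in bud n-2, and 0.343% and 0.686% for the difference.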

How the data were processed

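The deposited values are 1-colour intensity on a linear scale, made with MAS5 and GCOS per the submitters' processing notes; no versions are given there. Every array has a 2% trimmed mean of 100.0, as scaling each array by a single factor would give. Of 22810 probe sets, 64 controls were left out of tests. Names came from GEO's platform table, updated with RefSeq genes (TAIR10.1): 13436 probe sets have 1 locus, 503 several and 8794 are unlisted. The remaining probe sets are listed but were matched to no locus. Each of the 21 genes has 1 probe set of the single-locus kind. Intensities were log2-transformed with no offset and filtered at the 40th percentile, and group means were fitted to the 12 arrays with limma 3.58.1 in R 4.3.3 (intensity-trended prior; degrees of freedom 8 residual, 9.18 prior). The 95% confidence intervals use the same fit and are not adjusted for the number of genes.

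The genes, steps and lists were chosen with earlier results of these data known. Values on every array are given, per step, for up to 3 genes with the smallest p over the 4 groups, and also for ATSMC2 and AT3G45850, singled out after their values were seen. The code was tested on simulated data. Same-numbered arrays of different groups did not deviate together (r from -0.143 to 0.0755 over 18 pairs). A planned search of promoter motifs was not made, since no promoter sequences were used here. Alternatives tried were a replicate block, array weights, an untrended prior, quantile or median-centred scaling, an offset of 32, a 60th-percentile filter or none, the compared arrays alone, dim values raised to the 40th percentile and each array left out.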

Additional observations from a re-analysis of the deposited data

How the results depend on the processing

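The position calls of the 21 genes held under nearly all alternatives. Between 17 and 20 genes were lower in bud n-2 at high R:FR and 17 to 19 at low R:FR, and the 17 came from the filter at the 60th percentile, which leaves AT3G57060, ATSMC2 and BUB3.2 untested. Over the 12 arrays left out in turn the counts were 18 to 20 and 19, and the medians -0.90 to -0.70 under high and -1.01 to -0.84 at low R:FR. The median at high R:FR was -0.98 with median centring and -0.47 with 32 added. Under low R:FR it was -1.13 with quantile normalization, -1.10 with median centring, -0.70 with 32 added and -1.03 with the filter at the 60th percentile. With the replicate block 19 genes were lower under each light, as without it, and no call of the 21 genes changed. Unchanged calls cannot settle whether arrays with the same number share plants or a harvest. In bud n-2 the count of genes lower at low R:FR was 0 to 1 with an array left out, the 1 being 3xHMG-box2. No gene passed in the bud n light response or in the difference of responses under any alternative run. Counts over all tested probe sets moved more. For the difference of responses they were 98 more negative and 49 more positive, 0 to 159 and 2 to 105 with an array left out (0 and 2 without replicate 3 of bud n at high R:FR), 299 and 145 with array weights, and 0 and 0 without the trend in the prior variance. For the bud n-2 light response they were 785 lower and 620 higher, and 393 to 879 and 252 to 750 with an array left out. For position, median centring raised the lower calls from 2044 to 4046 at high R:FR and from 3330 to 5202 at low R:FR. Using the mean of several probe sets per gene was not run, since each gene has 1. Dim signal limits AT3G57060 and BUBR1, which hold all 5 of the 252 values below the 40th percentile.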

Other observations

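Over the 12 arrays, each gene was set against the mean of the other 20, as a description with no test, since the arrays share groups and scaling. Pearson's r was 0.877 to 0.982 for 19 genes, 0.556 for ATSMC2 and -0.681 for AT3G45850. The median r over the 210 pairs of genes was 0.876, and 0.0704 after the group means were removed. Within groups the members differed in this, with r against the mean of the others from -0.413 for AUR3 to 0.865 for AT2G28620, and with 0.829 for ATSMC2 and 0.679 for BUBR1. The mean deviation of the 21 genes from their group means was -0.073 to 0.078 on the log2 scale, with the extremes in replicate 1 of bud n-2 at high R:FR and replicate 3 of bud n at low R:FR, where 7 and 16 of the 21 genes lay above their group mean.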
